A study of Rattus norvegicus with 24 samples.

Results

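The enzymes that lead from the activated acetyl units of the cell to lanosterol, the first sterol of cholesterol synthesis, were followed in the brain stem of male Wistar rats (RccHan:WIST). The members were 9 genes of this route, taken by their symbols in the annotation of the array: Hmgcs1, Mvk, Pmvk, Mvd, Idi1, Fdps, Fdft1, Sqle and Lss. Of these, 8 were measured by 9 transcript clusters, out of 22093 genes with a symbol on the array, and Hmgcs1 was not analysed here. Rats of 7-8 weeks ate food with 400 ppm rotenone, which blocks complex I in mitochondria, over a period of 1, 3 or 14 days, and the controls of each day received the same food without it. Of the 5 rats assigned to a group, 4 were hybridized in each of the 6 groups, with 1 RTA 1.0 array for each rat and 24 arrays in all. The rats were not genetically modified, and all were of 1 sex, age class and strain. An array value is the intensity of a transcript cluster, a set of probes for 1 transcribed stretch, and all levels below are log2 of that intensity. Differences are rotenone minus control on this scale, so that -1 is a halved intensity, and a level of one gene cannot be set against that of another because their probes differ.

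Cholesterol synthesis begins in the cytosol, where Hmgcs1 condenses acetyl-CoA and acetoacetyl-CoA, and the product is reduced to mevalonate. Mvk and Pmvk phosphorylate mevalonate, Mvd decarboxylates it to isopentenyl diphosphate, and Idi1 isomerises this unit. Fdps joins the units to farnesyl diphosphate, from which protein prenylation, dolichol and ubiquinone synthesis also draw. Fdft1 joins a pair of farnesyl units to squalene, Sqle adds an epoxide to it with molecular oxygen, and Lss closes the rings to lanosterol. The brain makes its own cholesterol behind the blood-brain barrier, and oligodendrocytes use much of it for myelin. The genes of the route are known to be switched on together by the sterol-regulated factor SREBP2, the product of Srebf2, which acts with NF-Y, a factor that binds the sequence CCAAT.

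Because the members are known to be regulated together, the bases just before the annotated start of transcription are shown for the 5 measured members with an entry in the promoter table of RefSeq (build GRCr8). Each line runs 5′ to 3′ on the strand of the gene and ends 1 base before the start. Capitals mark CCAAT, or ATTGG where it lies on the opposite strand.
Mvk: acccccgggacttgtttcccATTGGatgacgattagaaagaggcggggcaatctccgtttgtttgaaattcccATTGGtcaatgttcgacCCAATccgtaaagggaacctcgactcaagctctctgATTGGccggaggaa
Mvd: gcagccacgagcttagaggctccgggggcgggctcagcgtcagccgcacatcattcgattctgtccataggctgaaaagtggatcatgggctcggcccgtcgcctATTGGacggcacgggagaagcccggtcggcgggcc
Idi1: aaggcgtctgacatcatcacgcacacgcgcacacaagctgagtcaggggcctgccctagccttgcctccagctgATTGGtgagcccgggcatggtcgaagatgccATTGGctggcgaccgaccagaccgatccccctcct
Fdps: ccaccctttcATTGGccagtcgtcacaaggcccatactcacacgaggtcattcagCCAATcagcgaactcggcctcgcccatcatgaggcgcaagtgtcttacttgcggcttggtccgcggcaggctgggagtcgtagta
Lss: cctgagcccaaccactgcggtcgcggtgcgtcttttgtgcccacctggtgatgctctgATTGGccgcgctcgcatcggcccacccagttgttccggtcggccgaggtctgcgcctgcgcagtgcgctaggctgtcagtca
All 5 genes lie on the minus strand, and the windows are chr12:47819504-47819643 for Mvk, chr19:67414975-67415114 for Mvd, chr17:66547525-66547664 for Idi1, chr2:176804817-176804956 for Fdps and chr20:12118231-12118370 for Lss. CCAAT on either strand occurred in 5 of these 5 windows of 140 bases, against 22.3% of the 33469 windows of the same length in the table. Mvk held 4 copies, Idi1 and Fdps 2 each, and Mvd and Lss 1 each, the copy of Lss beginning 82 bases before the start. Among the enzymes from lanosterol to cholesterol, 7 of 9 windows held it. The sequence GGGCGG, also searched on either strand, was in 1 of the 5 windows, against 25.4% of all windows. It was in 6 of 9 windows of the enzymes from lanosterol to cholesterol. A form of the sterol response element, TCACNCCAC on either strand, was in 0 of the 5 windows and in 0.598% of all windows. Other forms of this element were not searched, so that the windows may hold them. Such a match describes letters in a window, not binding.

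Signs that the tissue piece was not equal in all rats bear on what follows. Among the controls of day 1, replicate 1 had a mean level of 10 cerebellum markers of 12.87 and replicate 3 one of 12.19, while it lay between 7.89 and 9.19 in the other 22 arrays. Replicate 3 also had the lowest mean of 9 oligodendrocyte markers, 13.96, against 14.31 to 14.98 in the other arrays. The 8 neuron markers averaged 14.41 to 14.92 over the arrays, and the 6 measured brain stem markers 8.23 to 9.81. Each single brain stem marker ranged more widely than this mean, the narrowest being Chat (7.55 to 9.20) and the widest Tph2 (6.36 to 12.33). The main results that rest on the controls of day 1 are therefore also given without replicates 1 and 3. In a piece of tissue, fewer cells of a type and less RNA per cell cannot be told apart.

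After 14 days, all 8 measured enzymes had lower mean levels in rotenone-fed rats than in controls, and the last enzyme before lanosterol, Lss, had the lowest difference. Lss, lanosterol synthase, was at 10.21, 10.28, 10.17 and 10.02 in rotenone-fed rats, against 11.48, 10.90, 10.93 and 11.09 in controls. Every rotenone-fed rat lay below every control. The difference was -0.93 with an SE of 0.20, or a fold of 0.52. It ranked 19th from the lowest among 22093 genes, and its adjusted p in limma was 0.099, which did not pass the threshold of 0.05. The exact two-sided permutation test of 4 against 4 rats gave p = 0.029, the smallest it can give.

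Sqle, squalene epoxidase, was at 12.85, 12.50, 12.61 and 12.84 in rotenone-fed rats of day 14, against 13.28, 13.08, 13.16 and 13.23 in controls. The groups did not overlap, and the difference was -0.49 (SE 0.19, fold 0.71, limma adjusted p = 0.38). Fdft1, squalene synthase, was at 13.94, 13.47, 13.57 and 13.85 in rotenone-fed rats, against 14.15, 13.91, 14.01 and 14.00 in controls. Here 1 rotenone-fed rat, at 13.94, lay above the lowest control, and the difference was -0.31 (SE 0.14, adjusted p = 0.44).

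Idi1, the isomerase of isopentenyl diphosphate, was at 11.55, 11.19, 11.20 and 11.32 in rotenone-fed rats of day 14, against 11.83, 11.74, 11.75 and 11.66 in controls. Its groups did not overlap, and the difference of -0.43 (SE 0.15, adjusted p = 0.34) was close to that of Sqle. Fdps, farnesyl diphosphate synthase, was at 9.65, 9.43, 9.57 and 9.50 in rotenone-fed rats, against 9.69, 9.69, 9.81 and 9.84 in controls. This was the smallest difference of the 8, -0.22 (SE 0.09, adjusted p = 0.38), and the highest rotenone-fed rat, at 9.65, nearly reached the lowest control.

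The early kinases and the decarboxylase also had lower means. Mvk, mevalonate kinase, was at 8.87, 8.62, 8.75 and 8.83 in rotenone-fed rats of day 14, against 9.29, 9.02, 8.97 and 9.09 in controls, a difference of -0.33 (SE 0.12, adjusted p = 0.35). Pmvk, phosphomevalonate kinase, was at 8.15, 7.75, 7.91 and 8.07 in rotenone-fed rats, against 8.57, 8.17, 8.40 and 8.39 in controls, a difference of -0.41 (SE 0.16, adjusted p = 0.37). In neither did the groups overlap, although the highest rotenone-fed rat of Pmvk, at 8.15, nearly reached the lowest control, at 8.17. Mvd, the decarboxylase, was at 7.53, 7.49, 7.42 and 7.49 in rotenone-fed rats, against 7.85, 7.79, 7.82 and 7.61 in controls, a difference of -0.28 (SE 0.12, adjusted p = 0.42).

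Of the 8 members, 0 passed the adjusted threshold at day 14, where 0.0378% of the 68842 clusters did. At an unadjusted limma p under 0.05, 8 of 8 members were lower, against 7.31% of all genes with a symbol. The rats of both groups did not overlap in 7 of 8 members, all lower with rotenone, against 6.16% of all genes. The median of the members was -0.37, beside -0.0051 over all genes. The members come from the same rats and their levels are correlated among rats, so that these counts are not 8 independent results. Along the route, the differences did not fall steadily, since Pmvk and Idi1 stood below Fdps and Fdft1, but Sqle and Lss, the last steps, had the lowest values. Whether members differed from each other was not tested.

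**Figure D1:**
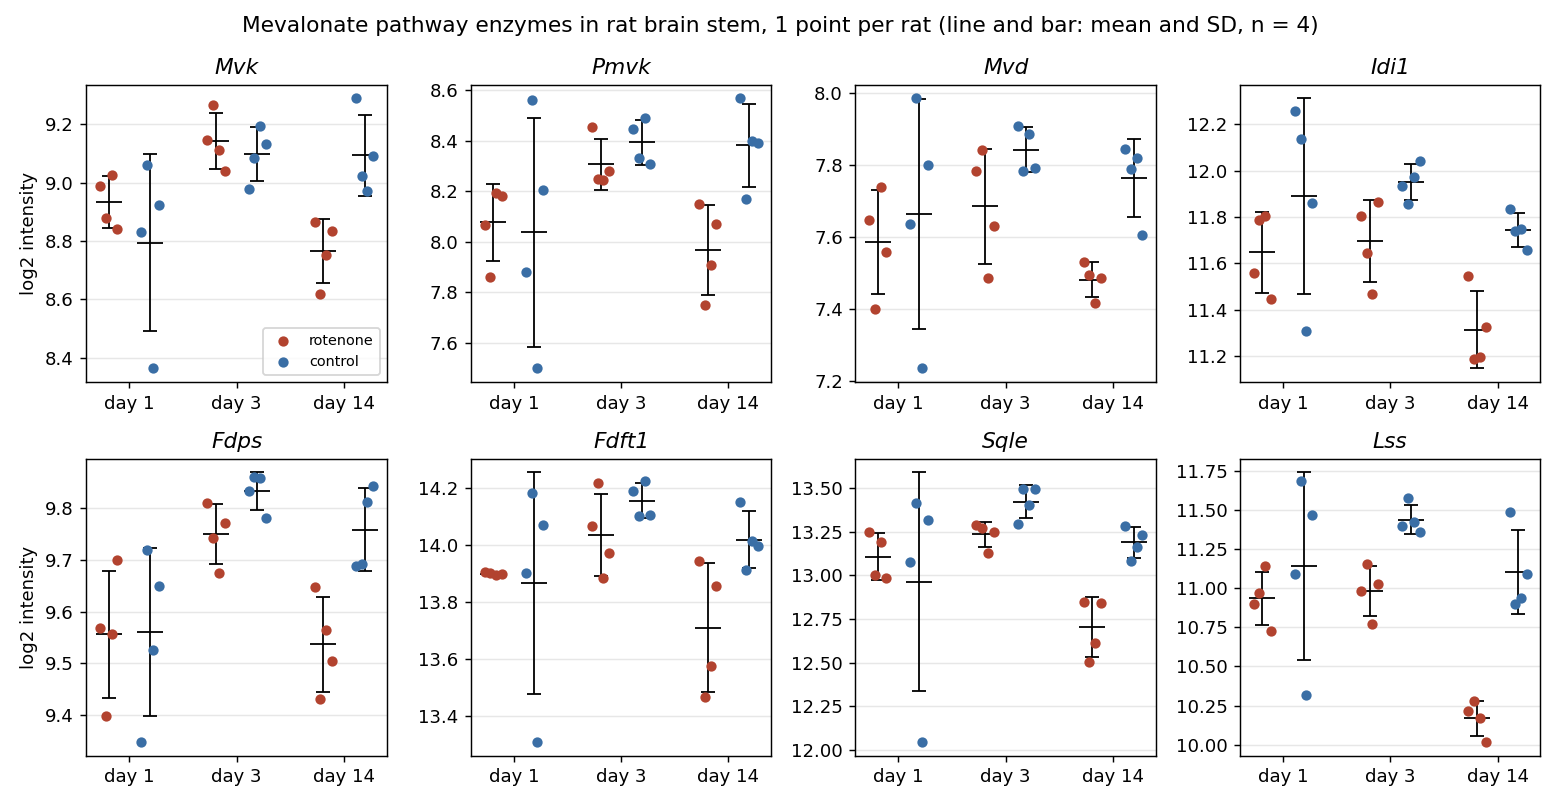
Log2 intensity of the 8 measured enzymes on the vertical axes, with 1 point for each rat, by day and treatment (rotenone red, control blue; lines and bars are the mean and SD of 4 rats). At day 14 the rotenone-fed rats lie below the controls in each panel but that of Fdft1, where 1 rat overlaps, and at day 1 the spread of the controls is widened by replicate 3, as in Sqle at 12.04.

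The values of Lss are those of cluster TC2000001338.rn.1, and the array holds another with this symbol, TC2000001328.rn.1, at a lower level. The second gave -0.66 at day 14 (SE 0.16, adjusted p = 0.16), -0.34 at day 3 and -0.09 at day 1, and at days 3 and 14 its groups did not overlap either.

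At day 3 the differences were smaller, and 7 of 8 members had a lower mean with rotenone. Lss was at 10.98, 11.15, 10.77 and 11.02 in rotenone-fed rats, against 11.39, 11.57, 11.42 and 11.36 in controls, a difference of -0.45 (SE 0.20) with no overlap and an exact permutation p of 0.029. Sqle was at 13.29, 13.27, 13.13 and 13.24 in rotenone-fed rats, against 13.29, 13.49, 13.40 and 13.49 in controls, again without overlap, but with the highest treated rat and the lowest control nearly level, and its difference was -0.19 (SE 0.19). Idi1 was at 11.81, 11.65, 11.47 and 11.86 in rotenone-fed rats and 11.94, 11.85, 11.97 and 12.04 in controls, a difference of -0.26 (SE 0.15) with 1 rat overlapping.

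Mvk was the exception at day 3, with a mean of 9.14 ± 0.10 in rotenone-fed rats and 9.10 ± 0.09 in controls (SD, n = 4 each). Fdps was at 9.81, 9.74, 9.67 and 9.77 in rotenone-fed rats, against 9.83, 9.86, 9.86 and 9.78 in controls, and Fdft1 at 14.07, 14.22, 13.88 and 13.97 in rotenone-fed rats, against 14.19, 14.10, 14.22 and 14.10 in controls, both with overlap. Pmvk spanned 8.24 to 8.46 in rotenone-fed rats and 8.31 to 8.49 in controls, and Mvd 7.49 to 7.84 in rotenone-fed rats and 7.78 to 7.91 in controls. The other differences of that day were -0.16 for Mvd, -0.12 for Fdft1, -0.09 for Pmvk and -0.08 for Fdps, each smaller than its 95% error margin. By limma 0 members passed at day 3, as did 0% of the clusters, and 1 member, Lss, was lower at an unadjusted p under 0.05, against 0.923% of all genes. The 2 members without overlap compare with 1.24% of all genes that were lower without overlap. The median of the members was -0.14, beside 0.0053 over all genes.

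At day 1 no common direction was seen over all arrays. The differences ran from -0.24 for Idi1 to 0.14 for Sqle, 4 were below 0 and 4 above, and their median was 0.014, beside 0.034 over all genes. By limma 0 members passed, as did 0% of the clusters, and 0 were lower at an unadjusted p under 0.05, where 3.67% of all genes were. The controls of this day were the most variable group. Sqle was at 13.25, 13.00, 13.19 and 12.99 in rotenone-fed rats, against 13.08, 13.41, 12.04 and 13.31 in controls. Lss was at 10.90, 10.97, 11.14 and 10.73 in rotenone-fed rats, against 11.09, 11.69, 10.32 and 11.46 in controls. In both genes the low control was replicate 3, which had cerebellar transcripts and the lowest mean of the oligodendrocyte markers. Replicate 1, whose cerebellum markers were higher, was at 13.08 in Sqle and 11.09 in Lss. Idi1 was at 11.56, 11.79, 11.80 and 11.45 in rotenone-fed rats, against 12.26, 12.14, 11.31 and 11.86 in controls, where replicate 3 was low again and the other controls lay above every treated rat. Fdps was at 9.57, 9.40, 9.56 and 9.70 in rotenone-fed rats, against 9.35, 9.72, 9.53 and 9.65 in controls, with replicate 1 as its low array. In Fdft1 the rotenone-fed rats spanned only 13.89 to 13.90, and the controls 13.31 to 14.18. Mvk spanned 8.84 to 9.03 in rotenone-fed rats and 8.36 to 9.06 in controls, Pmvk 7.86 to 8.19 in rotenone-fed rats and 7.498 to 8.56 in controls, and Mvd 7.40 to 7.74 in rotenone-fed rats and 7.24 to 7.98 in controls, each with replicate 3 as the lowest control.

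Without control day 1 replicates 1 and 3, the day 1 differences of all 8 members were below 0, with a median of -0.28 beside 0.0071 over all genes. Lss then stood at -0.64 (SE 0.15), Idi1 at -0.35, Pmvk and Mvd at -0.31 each and Sqle at -0.26. At an unadjusted limma p under 0.05, 5 of 8 members were lower, against 0.774% of all genes, and 0 passed the adjusted threshold. Only 2 controls remain for this day, at 11.69 and 11.46 for Lss and 13.41 and 13.31 for Sqle, both above all 4 rotenone-fed rats.

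The same 22 arrays leave the day 14 differences as they were but lower their standard errors, to 0.12 for Lss and 0.09 for Sqle. Lss then passed limma with an adjusted p of 0.0050 and Sqle with 0.042, among 0.103% of clusters called. The adjusted p of the other 6 members lay between 0.15 and 0.29.

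**Figure D2:**
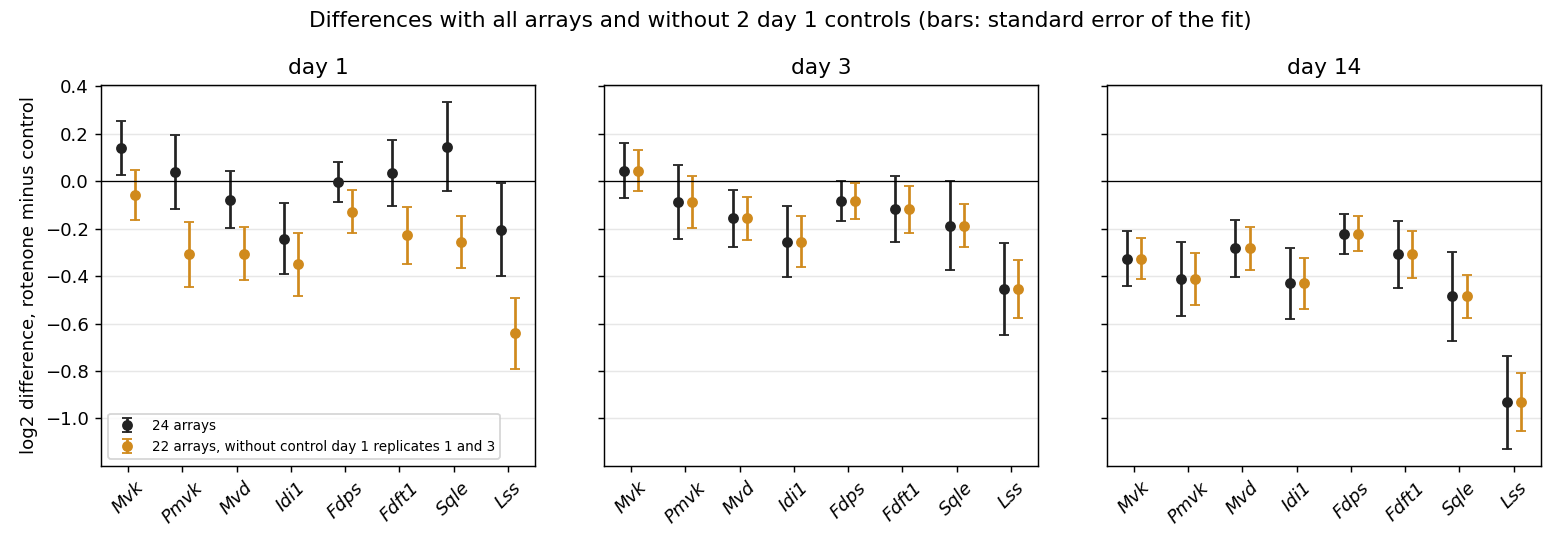
Log2 difference, rotenone minus control, of the 8 enzymes in pathway order at each day, fitted on all 24 arrays (black) and on 22 arrays without control day 1 replicates 1 and 3 (orange), with the standard error as bars. The values of day 1 move below 0 for all 8 members without these arrays, Lss to -0.64, while those of days 3 and 14 keep their place with shorter bars, Lss at -0.93 on day 14.

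Averaged over the 3 days, all 8 members had a difference below 0, from -0.05 for Mvk to -0.53 for Lss (SE 0.11, adjusted p = 0.18). Idi1 followed with -0.31 (SE 0.09, adjusted p = 0.27), and 12 of 12 rotenone-fed rats had Idi1 below the mean of the controls of their day. By limma 0 members passed, where 0.00291% of clusters did, and 4 of 8 were lower at an unadjusted p under 0.05, against 5.06% of all genes. Without the 2 arrays Lss passed with -0.68 (adjusted p = 0.0020), among 0.0102% of clusters called.

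The effect of rotenone was not shown to differ between days. The joint interaction of treatment and day had adjusted p-values of 0.96 and above for the 8 members, with 0 called as with 0% of clusters. Before adjustment, 2 of 8 members, Mvk and Lss, were under 0.05 in limma, where 5.42% of all genes were. The Lss difference of day 14 minus that of day 3 was -0.48 (SE 0.28, adjusted p = 0.96), and that of day 14 minus day 1 was -0.73 (SE 0.28, adjusted p = 0.74). Without control day 1 replicates 1 and 3 this last Lss value was -0.29 (SE 0.19), and the median of the 8 members for day 14 minus day 1 was -0.10, against -0.40 over all arrays.

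Within the rotenone-fed rats, the levels of day 14 lay below those of day 3 in 8 of 8 members, with a median of -0.36 beside -0.0094 over all genes. Lss differed by -0.81 (SE 0.20), Sqle by -0.53 (SE 0.19), Idi1 by -0.38 and Mvk by -0.37. By limma 0 members passed, where 0.0189% of clusters did. At an unadjusted p under 0.05, 7 of 8 were lower, all but Mvd, against 6.25% of all genes, and 5 of 8 did not overlap between these days, against 5.84%. Without control day 1 replicates 1 and 3, Lss (adjusted p = 0.0088) and Sqle (adjusted p = 0.024) passed here, among 0.109% of clusters. In controls the same step was also below 0 in 8 of 8 members, with a median of -0.11 and values from -0.0042 for Mvk to -0.34 for Lss. There 0 members and 0% of clusters passed, and 0 members were lower at an unadjusted p under 0.05, against 1.13% of all genes. Without control day 1 replicates 1 and 3, 2 of 8 members were lower at this limma p, against 1.36%, and 0 passed. The controls of these days did not overlap in Idi1 (-0.21) and Sqle (-0.23). The share over all genes was not counted, so whether this is unusual cannot be said. The second Lss cluster stood at -0.36 (SE 0.16) for this step in controls. These steps share no rats, but each shares its rats with the comparison of treatments above.

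The earlier step, from day 1 to day 3, was above 0 in 8 of 8 members in both treatments, with a median of 0.13 in rotenone-fed rats and 0.29 in controls. By limma 0 members and 0% of clusters passed in either, and at an unadjusted p under 0.05 there was 1 higher member in rotenone-fed rats, Fdps, against 2.50% of all genes, and 4 in controls, against 7.31%. The median of the controls was 0.018 without replicates 1 and 3 of day 1. From day 1 to day 14, the median was -0.18 in rotenone-fed rats, with 0 members called among 0.0305% of clusters and 3 lower at an unadjusted p under 0.05, against 4.37% of all genes. In controls that median was 0.18, or -0.12 without the 2 arrays, with 0 members and 0% of clusters called and 3 members higher at an unadjusted p under 0.05, against 9.70%. Rats killed on different days also differ in age, which cannot be told apart from the time on the diet.

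Ordered by mean level, rotenone day 14 was the lowest of the 6 groups in 8 of 8 members, and control day 3 the highest in 7 of 8, the exception being Mvk with rotenone day 3 highest. For Lss the order from the lowest was rotenone day 14 at 10.17, rotenone day 1 at 10.93, rotenone day 3 at 10.98, control day 14 at 11.10, control day 1 at 11.14 and control day 3 at 11.44. The 5 groups above rotenone day 14 followed each other by steps within the 95% error margin of a difference. Of the 40 steps between neighbouring groups over the 8 members, 3 exceeded that margin: those above rotenone day 14 in Lss and Idi1, and 1 in Fdps. The range of group means was widest in Lss, 1.27, and narrowest in Fdps, 0.30.

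The steps that follow the route showed the same direction at day 14. Of the enzymes from lanosterol to cholesterol, 9 of 10 were measured, and 9 of 9 were lower at an unadjusted p under 0.05 without overlap of the rats, against 7.31% of all genes by this p and 6.16% without overlap, with a median of -0.45. None passed limma after adjustment over all arrays, with adjusted p-values from 0.24 to 0.42, while without control day 1 replicates 1 and 3 Cyp51 (adjusted p = 0.014) and Dhcr7 (adjusted p = 0.048) passed. Cyp51, which removes a methyl group from lanosterol, averaged 14.56 in rotenone-fed rats and 15.25 in controls, a difference of -0.68 (SE 0.21). Dhcr7, the reductase of the final step to cholesterol, averaged 8.66 in rotenone-fed rats and 9.25 in controls (-0.59, SE 0.16), and Tm7sf2, a sterol reductase, 8.39 in rotenone-fed rats and 8.90 in controls (-0.51, SE 0.20). At day 3 the differences of this list were below 0 in 9 of 9 genes, with -0.28 for Cyp51 and -0.25 for Msmo1, and at day 1 in 1 of 9, with 0.33 for Tm7sf2 and 0.27 for Hsd17b7. Without control day 1 replicates 1 and 3, 8 of 9 were below 0 at day 1.

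Of the enzymes that supply acetyl-CoA and acetoacetyl-CoA, 3 of 3 were measured and lower at day 14. Acss2, which activates acetate, differed by -0.53 (SE 0.16), Acat2, which joins acetyl-CoA units, by -0.47 (SE 0.21), and Acly, which cleaves citrate, by -0.27 (SE 0.17). Acss2 and Acat2 were lower at an unadjusted p under 0.05, against 7.31% of all genes, and none passed after adjustment. At day 3 Acat2 stood at -0.25 and Acss2 at -0.24, and at day 1 Acly stood at 0.20 and Acat2 at 0.13. Without the 2 controls all 3 were below 0 at day 1, Acat2 at -0.31, Acly at -0.20 and Acss2 at -0.19.

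Among the genes of sterol sensing, over 12 of 12 the median at day 14 was -0.10, and 3 were lower at an unadjusted p under 0.05, against 7.31% of all genes. Stard4, a cholesterol carrier, stood at -0.26 (SE 0.14), Nr1h2, which encodes the oxysterol receptor LXR beta, at -0.23 (SE 0.08), and Scap, the escort of SREBP, at -0.20 (SE 0.08). At day 1 Abcg1 stood at -0.23 and Mylip at -0.16 (0.09 and -0.12 without the 2 controls), and at day 3 Mbtps1 at 0.09 and Mylip at 0.08. Over the 12 genes of the branches from farnesyl and isopentenyl diphosphate the median at day 14 was also -0.10. All 12 were below 0, against 51.4% of all genes. Of these, 2 were lower at an unadjusted limma p under 0.05, against 7.31%, and 3 were lower without overlap of the rats, against 6.16%. The beta and alpha subunits of farnesyltransferase, Fntb and Fnta, stood at -0.47 (SE 0.14) and -0.22 (SE 0.12), and Icmt, which methylates prenylated proteins, at -0.27 (SE 0.13). In this list Icmt stood at -0.41 and Fnta at 0.21 at day 1 (-0.07 and -0.03 without the 2 controls), and Fnta at -0.12 and Fntb at -0.09 at day 3. Over all arrays, none of the genes of these 4 lists passed after adjustment at any day. Idi2, a relative of Idi1, stood at 0.21 (SE 0.13) at day 14.

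**Figure D3:**
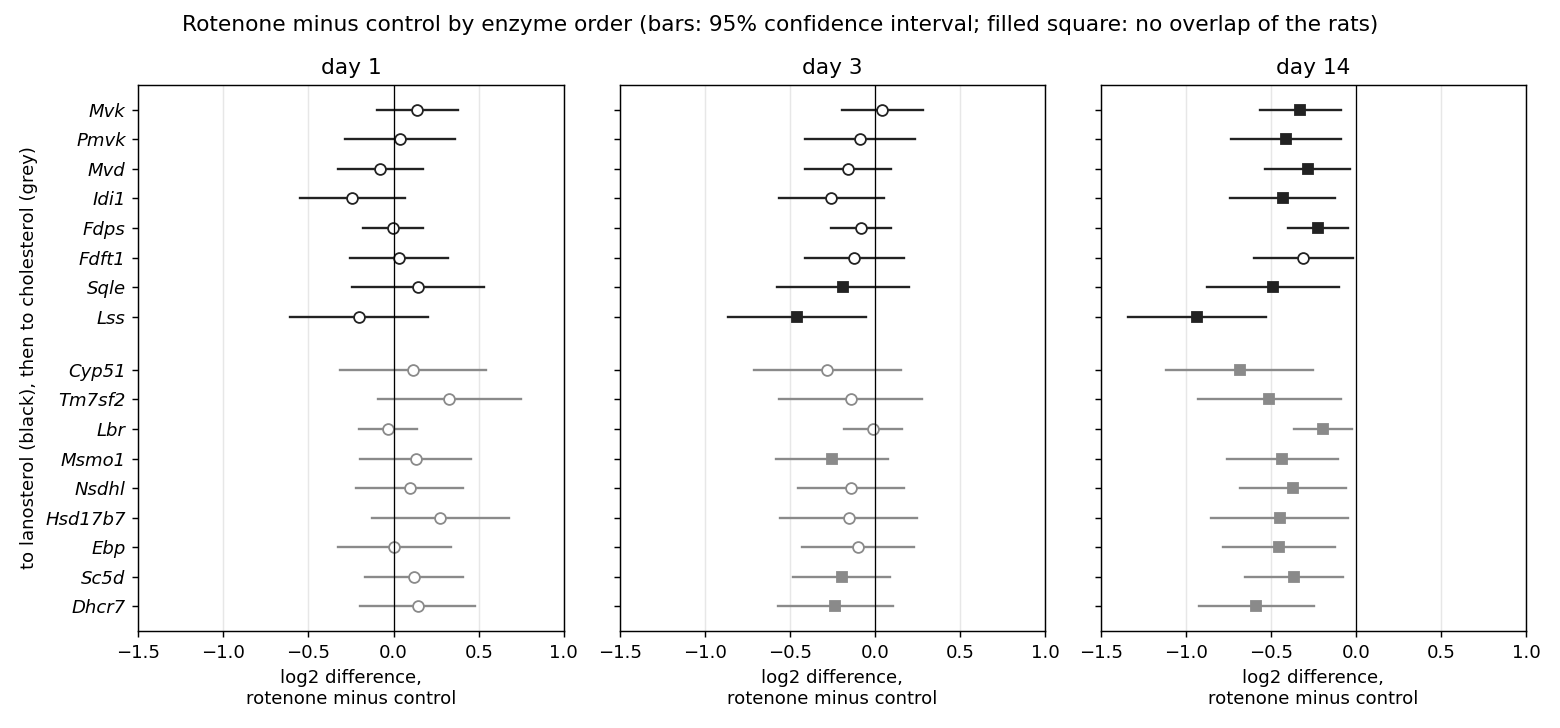
Log2 difference, rotenone minus control, with the 95% confidence interval of the fit, for the 8 enzymes to lanosterol (black) and the 9 measured enzymes from lanosterol to cholesterol (grey), in pathway order from top to bottom, at days 1, 3 and 14. Filled squares mark genes whose rats did not overlap, which at day 14 are all but Fdft1, and Lss lies lowest at -0.93.

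Markers of the cells that make myelin had lower means at day 14 as well. The 9 measured oligodendrocyte markers had a median difference of -0.22, with 8 of 9 below 0 and 2 lower at an unadjusted p under 0.05, against 7.31% of all genes. Their mean was 14.50 ± 0.15 in rotenone-fed rats (14.31 to 14.66) and 14.71 ± 0.13 in controls (14.54 to 14.83; SD, n = 4 each), so that the groups overlapped. Without control day 1 replicates 1 and 3, 5 of the 9 were lower at an unadjusted limma p under 0.05, against 8.94% of all genes. In that fit 1 of them passed the adjusted threshold, among 0.103% of clusters called. The 6 markers of oligodendrocyte precursors and newly formed oligodendrocytes averaged 10.16 ± 0.13 in rotenone-fed rats (10.05 to 10.30) and 10.67 ± 0.13 in controls (10.47 to 10.77), and Gpr17 among them passed limma with -1.19 (SE 0.16, adjusted p = 0.0077). The rats did not overlap in 3 of the 6, Gpr17, Enpp6 (-0.99) and Tns3 (-0.44), against 6.16% of all genes. Pdgfra, Cspg4 and Bcas1 had smaller differences, and the median of the 6 was -0.31. Of the 8 astrocyte markers 4, and of the 7 endothelium markers 3, were lower at an unadjusted p under 0.05, against the same 7.31%, and their means were 12.79 to 12.97 in rotenone-fed rats and 12.95 to 13.21 in controls for astrocytes, and 9.18 to 9.67 in rotenone-fed rats and 9.56 to 9.76 in controls for endothelium. The choroid plexus markers averaged 6.49 to 9.27 in rotenone-fed rats and 6.27 to 6.85 in controls, and the 5 red cell transcripts 7.08 to 11.02 in rotenone-fed rats and 12.44 to 13.65 in controls. The 8 neuron markers had a median difference of 0.00092. Of these lists only the oligodendrocyte markers were used as a covariate, as given below. The part of these cell types in the levels of the enzymes was not tested. At day 3 the oligodendrocyte markers averaged 14.87 in rotenone-fed rats and 14.87 in controls, and the precursor markers 10.76 in rotenone-fed rats and 10.89 in controls.

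With the mean of the oligodendrocyte markers as a covariate, the median of the members at day 14 was -0.23 and all 8 stayed below 0, 5 of them at an unadjusted p under 0.05 against 6.75% of all genes. Lss stood at -0.69 (SE 0.13, adjusted p = 0.094). In the same fit the step from day 3 to day 14 within rotenone-fed rats had a median of -0.11, against -0.36 without the covariate. For this step 1 of 8 members was lower at an unadjusted limma p under 0.05, against 4.64% of all genes. Without the covariate 7 of 8 were, against 6.25%. The covariate was fitted over all 24 arrays, and control day 1 replicate 3, with the lowest oligodendrocyte mean, was among them. It was not fitted without the 2 controls.

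**Figure D4:**
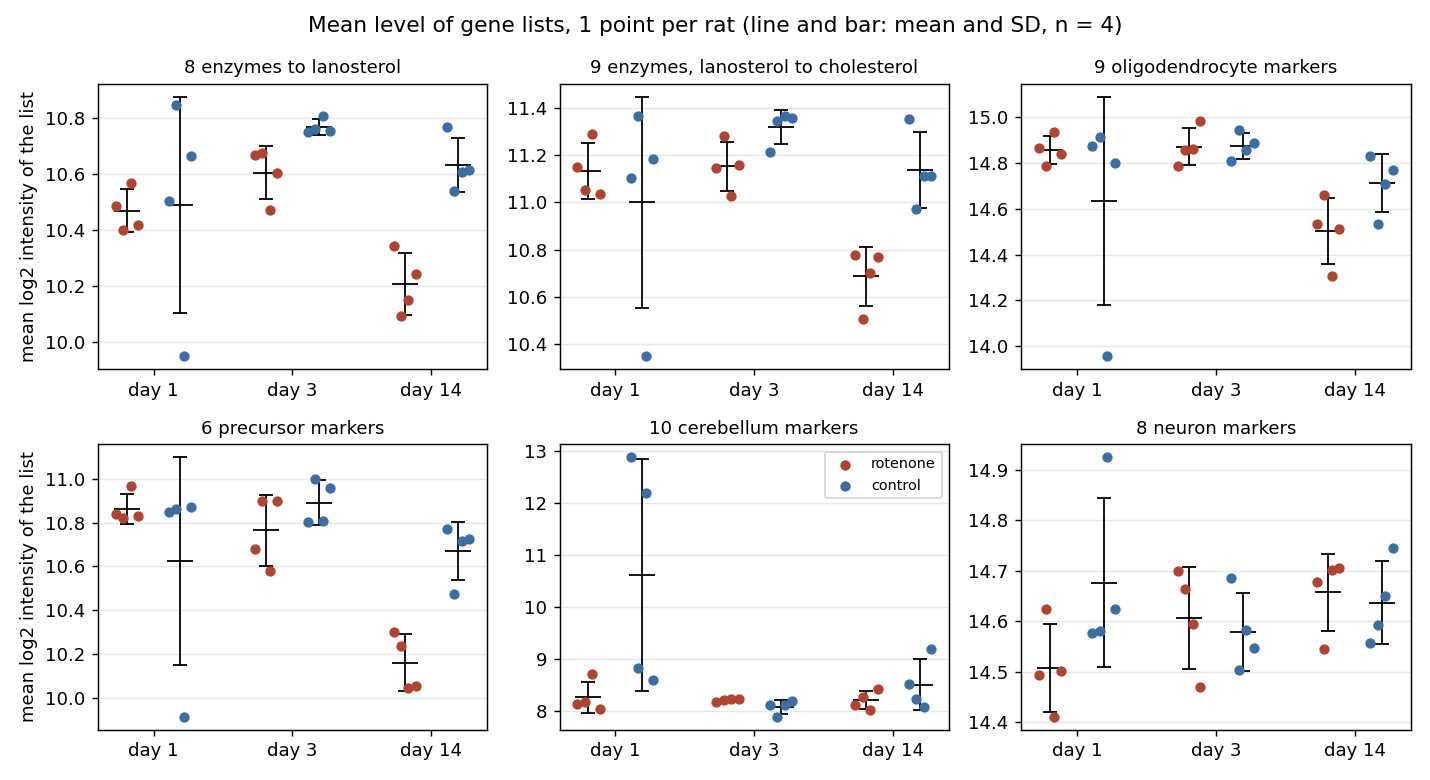
Mean log2 intensity of the 8 enzymes to lanosterol, the 9 enzymes from lanosterol to cholesterol and 4 lists of cell type markers, with 1 point for each rat, by day and treatment (rotenone red, control blue; lines and bars are the mean and SD of 4 rats). At day 14 the enzymes and the precursor markers are lower with rotenone without overlap, the oligodendrocyte markers are lower with overlap, and the cerebellum markers are high in 2 controls of day 1.

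The members also varied together among rats of the same group. After the group means were removed, the 28 pairs had a median Pearson r of 0.74 and a median Spearman rho of 0.52 over 24 arrays. Of these pairs, 14 passed 0.05 by Pearson and 15 by Spearman in a permutation test within groups, adjusted over the 28 pairs. The closest pair was Mvk and Sqle, with r = 0.89 (permutation p = 2e-05, adjusted 0.00056) and rho = 0.83 (p = 5e-05, adjusted 0.0014), and the lowest values were those of Fdps, with r = -0.08 with Idi1 and 0.22 with Lss, although 0.63 with Pmvk. The values were lower without the variable controls of day 1. With the 2 arrays farthest from the median of the first gene of a pair left out, the median r was 0.47. Over the 22 arrays without control day 1 replicates 1 and 3 it was 0.42, and 3 pairs passed by Pearson, of which Mvk and Sqle had r = 0.74 (permutation p = 0.00059, adjusted 0.016).

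**Figure D5:**
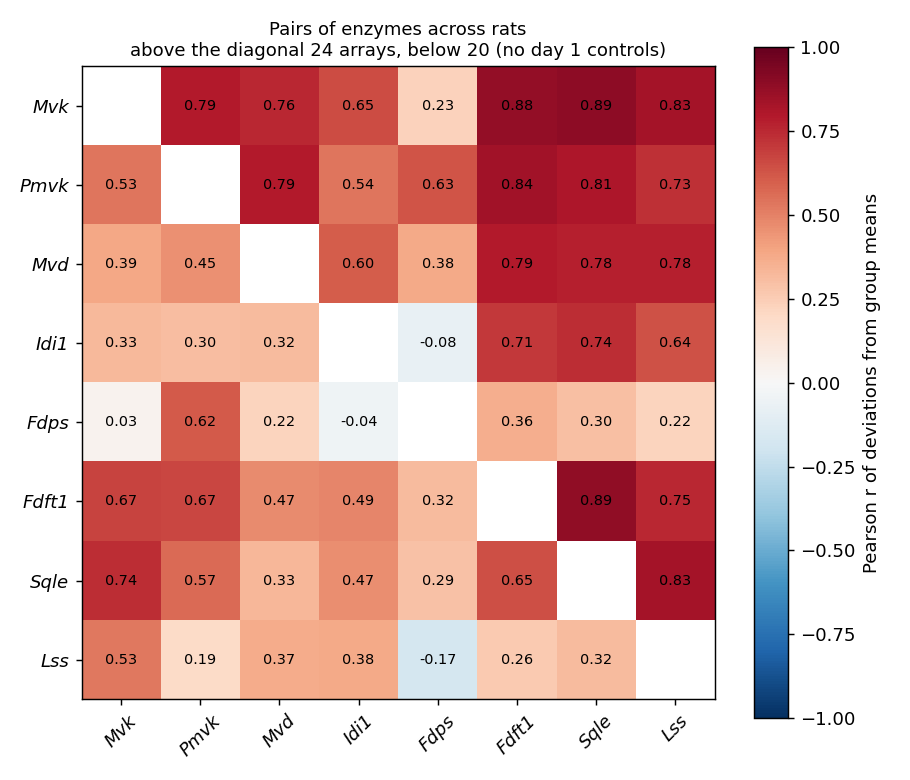
Pearson r between the deviations of 2 enzymes from their group means, for all 28 pairs, over 24 arrays above the diagonal and over the 20 arrays without the day 1 controls below it. The median is 0.74 above and 0.37 below, and above the diagonal the palest cells are those of Fdps, such as -0.08 with Idi1, although it reaches 0.63 with Pmvk.

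The genes of the array whose deviations were most like the mean deviation of the 8 members over the 24 arrays were Acat2 (Pearson r = 0.97), Nsdhl (0.94), Aacs (0.94), Slc25a1 (0.94) and Sc5d (0.93). Nsdhl and Sc5d are enzymes between lanosterol and cholesterol, Aacs activates acetoacetate and Slc25a1 carries citrate out of mitochondria. Over the 20 arrays without the controls of day 1 these values were 0.88 for Acat2, 0.77 for Nsdhl, 0.79 for Aacs, 0.79 for Slc25a1 and 0.73 for Sc5d. The order changed there, and the genes ranked highest were Acat2, Fntb (0.86), Nnt (0.84), Hsd17b7 (0.83) and Etfa (0.83). These values describe arrays that share tissue makeup and brightness, and no test was made.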

How the data were processed

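Total RNA of the brain stem was hybridized to Affymetrix RTA 1.0 arrays, 1 for each of 24 rats. The authors corrected the probe signals for GC content and scaled them (GCCN and SST) and summarised them by RMA, and the deposited values are linear intensities of transcript clusters. A genome build was not given in the sources used here. The array medians were 70.7 to 82.6, and array data hold no count depth, so that the number of rats limits the precision. All 68842 clusters that are not control probe sets were used, and the log2 of the intensity was taken with no further normalization and no filter. For each symbol the cluster with the highest mean was kept. A linear model of the 6 group means over all arrays was fitted in limma (version 3.58.1, R version 4.3.3) with 18 residual degrees of freedom, Benjamini-Hochberg adjustment over all clusters and a threshold of 0.05. Exact two-sided permutation tests compared 4 against 4 rats. The labels do not say whether litters or cages were shared, and each array is a different rat. The members and the gene lists were chosen with earlier results of these data known. Named from a list were the genes with the largest absolute differences at a day, 3 at day 14 and 2 at days 1 and 3, apart from the members, which were all named, and other genes named beside them were chosen after their values were seen. Correlations used deviations from group means and 100000 permutations within groups. Motifs were searched on both strands of the RefSeq windows. Alternatives were quantile normalization, centred arrays, trended and robust priors, brighter clusters only, array weights, a replicate block, single-day fits, the criteria of the study, marker covariates, and leaving out arrays. The fit was tested on simulated data.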

Additional observations from a re-analysis of the deposited data

Results flagged for a closer look

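Among 48 sets of 4 rats, formed by 8 enzymes and 6 groups, 1 held a rat far from the others. It was rotenone day 3 replicate 1 for Pmvk, at 8.46, while the other rats of the group lay between 8.24 and 8.28, and its gap to the nearest rat was 0.835 of the range of the group. Chance alone flags about 1 set in 20, or 2.4 of 48.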

How the results depend on the processing

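At day 14 none of the 8 members changed sign under any of the alternatives run. With quantile normalization 6 of 8 were lower at an unadjusted limma p under 0.05, with a median of -0.32, against 8 of 8 in the main analysis. From day 3 to day 14 in rotenone-fed rats, 4 of 8 were with quantile normalization and 6 of 8 with a replicate block, against 7 of 8. The share over all genes was not counted in these settings. Members called there numbered 0 in the main analysis, 2 (Lss and Sqle) without control day 1 replicates 1 and 3, and 1 (Lss) with brighter clusters only, with array weights or with the cerebellum covariate. Clusters called at day 14 were 26, and 45 with trended and robust priors, 84 with brighter clusters only, 98 with array weights, 71 without those 2 controls, 11 with the oligodendrocyte covariate and 0 with only the 8 arrays of the day. At day 3 array weights called 1 cluster. At day 1 the median of the members was -0.28 without the 2 controls and -0.27 with the cerebellum covariate. In the comparisons of rotenone with control, members changed sign only at day 1, where none was called: without the 2 controls Mvk was -0.059, Pmvk -0.31, Fdft1 -0.23 and Sqle -0.26, and with the cerebellum covariate these were -0.038, -0.31, -0.22 and -0.23. With the oligodendrocyte covariate Pmvk and Fdft1 were -0.12 each and Sqle -0.11, with array weights Pmvk was -0.049 and Fdft1 -0.047, with centred arrays Fdft1 was -0.0035, and with quantile normalization Fdps was 0.039. The cause was not tested.

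For the average over the days, 1 member (Lss) was called with array weights, without the 2 controls and with the oligodendrocyte covariate, and the clusters called were 2, and 1 with centred arrays, 4 with brighter clusters, 9 with weights, 7 without the 2 controls, 0 with the cerebellum covariate and 8 with the oligodendrocyte covariate. From day 3 to day 14 in rotenone-fed rats, members called were 1 with weights and 2 without the 2 controls, the median was -0.11 with the oligodendrocyte covariate, and clusters called were 13, and 8 with centred arrays, 36 with brighter clusters, 57 with weights, 75 without the 2 controls and 3 with the oligodendrocyte covariate. From day 1 to day 14 in rotenone-fed rats, 1 member was called with weights and 1 without the 2 controls, the median was 0.013 with the oligodendrocyte covariate (4 of 8 members below 0, against 8 of 8 without it), and clusters called were 21, and 46 with brighter clusters, 65 with weights, 58 without the 2 controls and 6 with the oligodendrocyte covariate. In controls, the median from day 1 to day 3 was 0.018 without the 2 controls and 0.0050 with the cerebellum covariate, and from day 1 to day 14 it was -0.12 and -0.10 in these settings, with 6 and 5 of 8 members below 0, against 2 of 8 over all arrays. From day 1 to day 14 in controls, clusters called were 0, and 2 with quantile normalization, 2 with centred arrays, 1 with trended priors, 1 with brighter clusters and 4 with the oligodendrocyte covariate. The interaction called 0 clusters, and 1 with trended priors, 1 with brighter clusters and 3 with weights. Of the 28 pairs, 23 passed with centred arrays, 3 without the 2 controls and 2 without the 4 controls of day 1, with a median r of 0.42 and 0.37 in the last settings, which were chosen after seeing the data, and of 0.47 without the 2 farthest arrays.

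The replicate numbers of the labels did not pair the rats, since 1 of 12 correlations of same-numbered arrays was above 0.1 (-0.18 to 0.19). With the number as a replicate block, 0 members were called in each comparison, and the clusters called were 14 at day 14, 1 for the average and 8 from day 3 to day 14 in rotenone-fed rats. Leaving out each array in turn gave medians from -0.16 to 0.094 at day 1, from -0.19 to -0.080 at day 3, from -0.43 to -0.31 at day 14 and from -0.22 to -0.11 for the average. Within controls they ran from 0.13 to 0.39 for day 3 minus day 1, from -0.14 to -0.090 for day 14 minus day 3 and from -0.038 to 0.25 for day 14 minus day 1, and within rotenone-fed rats from 0.094 to 0.18, from -0.41 to -0.29 and from -0.23 to -0.11. Members called ran from 0 to 1 at day 14, for the average and for day 14 minus day 1 in rotenone-fed rats, and from 0 to 2 for day 14 minus day 3 in rotenone-fed rats, and the array whose absence made each of these calls was control day 1 replicate 3, without which Lss at day 14 had an adjusted p of 0.0074. Clusters called ran from 0 to 71 at day 1, 0 to 154 at day 14, 1 to 9 for the average, 0 to 231, 0 to 1 and 0 to 558 for these steps in controls, 4 to 66 and 7 to 62 for day 14 minus day 3 and minus day 1 in rotenone-fed rats, and 0 to 5 for the interaction. At day 1 leaving out single arrays turned the sign of Mvk (-0.0045 to 0.23), Pmvk (-0.14 to 0.22), Mvd (-0.22 to 0.029), Fdps (-0.076 to 0.048), Fdft1 (-0.15 to 0.14) and Sqle (-0.16 to 0.30). With 4 rats a group, the 95% error margin of a difference ran from 0.18 for Fdps to 0.41 for Lss. The criteria the study states for a changed gene were read so that 1 factor of its analysis of variance was enough. In this reading 1 member (Lss, at day 14) passed with the ratio of the mean intensities. Its inverse ratio was 1.93 against a minimum of 1.8. With the ratio to the control median, a setting chosen after seeing the data, 0 passed, and Lss stood at 1.79. In the analysis of variance Lss met the threshold of the study for treatment, but not for time or for the interaction. Lss would not pass if all these factors were required.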
